A study of Homo sapiens with 27 samples.

Results

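Indeno[1,2,3-c,d]pyrene (IND) was set beside benzo[k]fluoranthene (BF) in HepG2 cells, an established line from a human hepatocellular carcinoma, after 48 h of exposure. The comparison rests on 6 of the 27 arrays of the series, 3 for each compound, chosen by their labels and not by any measured value. On every array the RNA of exposed HepG2 cells carried Cy5 and the RNA of HepG2 cells given the solvent DMSO carried Cy3, with no dye swap. The dose is not given in the sources used here, so the values are set side by side at the doses the study applied, whatever they were. The 2 compounds make 1 pair, and no second pair was compared. The labels do not say whether the 3 arrays of a compound came from separate cultures, so the p-values below measure the spread between arrays, which may be technical. They also do not say whether the IND and BF arrays shared a DMSO extract. IND was hybridised on an array design of its own, and BF on the design that the other compounds of the series used. Compound, array design and DMSO RNA therefore coincide and cannot be told apart in any difference between IND and BF. For this reason the account below turns on direction, rank and presence of change.

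Both compounds are polycyclic aromatic hydrocarbons made in combustion, and in each a cyclopenta ring joins aromatic parts. IND carries a further fused ring. Such flat molecules can bind the aryl hydrocarbon receptor (AHR), a transcription factor that waits in the cytoplasm in a chaperone complex, moves to the nucleus on binding, pairs with ARNT and binds DNA at a short core motif, GCGTG. Its best known target in liver cells is CYP1A1, the monooxygenase that oxidises these same compounds. The oxidised products can be reduced and oxidised again, or react with protein and DNA, and cells meet them with the NRF2 programme of antioxidant and conjugating enzymes and with the p53 programme of damage response.

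Each value below is a log2 ratio of compound over DMSO on 1 array, so 1 is a doubling and -1 a halving, or a mean of 3 arrays ± SD. Of 41000 probe IDs on both designs, 27543 carried a gene name, which made 17685 genes. With 1 probe per gene, 13099 genes passed the detection filter with both compounds. A gene was called higher or lower than DMSO at an adjusted p under 0.05 and a change of at least 1.5-fold, and called different between compounds at an adjusted p under 0.05 and at least 2-fold, in limma with Benjamini-Hochberg adjustment over all genes tested. Medians of raw signal lay between 341 and 546 in Cy5 and between 528 and 643 in Cy3, and 60.7% to 71% of spots per dye were above background. Replicates were close: the ratios of 2 arrays of 1 compound correlated across genes with Pearson's r of 0.964 to 0.980 for IND and 0.989 to 0.991 for BF. All 12 hepatoma and hepatocyte markers, ALB, AFP and APOA1 among them, were above background in both dyes on all 6 arrays. Of 20 markers of blood, endothelial, mesenchymal and biliary cells, 8 were in the tested set. The mesenchymal marker ACTA2 and the biliary markers KRT19 and SOX9 were above background in both dyes on all 6 arrays. The endothelial cadherin CDH5 was above background in neither dye on any array. HBB, COL1A2, DCN and CFTR were so in Cy3 on some arrays and in Cy5 on none. The other markers were above background in both dyes on some arrays. Of the 8, KRT19 was higher with both compounds (1.78 and 1.77), none was lower with IND, and with BF ACTA2 was higher (0.74) and LYZ, SOX9 and PDGFRB lower (-1.01, -0.98 and -1.44). Their part in the results was not tested.

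The DMSO channel itself differed between parts of the series. DMSO signals were compared between the IND arrays, the BF arrays and the pooled, bright arrays of 2 other compounds (BaP and PH). Across genes, DMSO signals of IND and BF arrays correlated with Spearman's rho of 0.902 to 0.952. Against the BaP and PH arrays rho was 0.820 to 0.855 for BF and 0.731 to 0.800 for IND. For 7372 of the 13099 genes (56.3%), each pair of these signals lay within 2-fold, here called genes with like DMSO levels. A gene could thus fall outside this set through the BaP and PH arrays alone. The main counts over all genes tested are also given over these genes, a restriction chosen after the DMSO signals were seen. Counts within gene lists are given over them only where stated. The part of the DMSO differences in the results was not tested.

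With loess normalisation, fewer genes were called with IND than with BF, and the genes that IND changed most were nearly all called the same way with BF. Without a dye swap, a bias of a probe for 1 dye would enter both ratios with the same sign. It would count as agreement between the compounds, and its part was not tested. With IND, 1470 genes (11.2%) were higher and 1898 (14.5%) lower than DMSO. With BF, 2561 genes (19.6%) were higher and 3370 (25.7%) lower. In either direction this was 25.7% of genes with IND and 45.3% with BF. Higher with both were 1010 genes (7.71%), and lower with both were 1136 (8.67%). The higher genes in common were 68.7% of those higher with IND and 39.4% of those higher with BF. The lower ones in common were 59.9% of those lower with IND and 33.7% of those lower with BF. Calls in opposite directions were 165 (1.26%), of which 98 were higher with IND and lower with BF and 67 the reverse. Among the genes with like DMSO levels the counts were 758 higher and 1066 lower with IND, 1496 higher and 1355 lower with BF, 569 higher with both, 589 lower with both and 55 in opposite directions. Centring each array on its median in place of loess moved the median of all genes from -0.04 to 0.14 for BF and turned the split of BF calls from 43.2% to 58.1% higher. For IND that split was 43.6% and 50.7%. Scaling the arrays to 1 spread sets their median absolute ratios equal, which were 0.31 with IND and 0.52 with BF. It multiplied the ratios by 1.29 for IND and 0.78 for BF on average. A general difference in size of response is thus removed by construction, wherever this scaling is given below. With it 2086 genes were higher and 2507 lower with IND against 1837 and 2731 with BF, so the order of the total calls turned.

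Large changes with IND were nearly all shared, and large falls with BF were not. Of the 112 genes at least 4-fold higher with IND, 107 were called higher with BF. Of the 78 genes at least 4-fold lower with IND, 77 were called lower with BF. From the side of BF, 192 of 206 genes at least 4-fold higher were higher with IND, but 272 of 537 genes at least 4-fold lower were lower with IND. With like DMSO levels these counts were 54 of 55, 47 of 48, 93 of 99 and 98 of 135. By rank, 65 of the 100 highest genes were the same with both compounds, but 19 of the 100 lowest were.

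**Figure D1:**
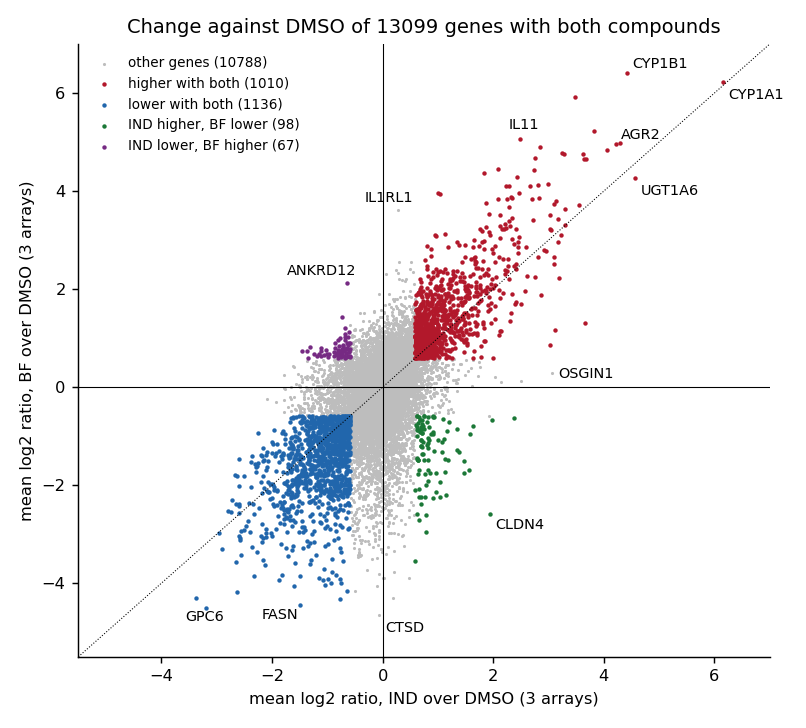
Mean log2 ratio against DMSO of each of 13099 genes with IND (x axis, 3 arrays) and with BF (y axis, 3 arrays), with genes called higher with both, lower with both or in opposite directions in colour. Of 2311 genes called with both compounds, 2146 lie in the quadrants of like sign, and the spread along the BF axis (SD 0.98) is wider than along the IND axis (SD 0.64).

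The 6 genes called with IND at 4-fold that did not follow with BF are named here after their values were seen. OSGIN1, a growth inhibitor under NRF2 control, read 3.10, 3.03 and 3.07 on the IND arrays and 0.19, 0.33 and 0.35 on the BF arrays. MYOD1, the muscle transcription factor, averaged 2.51 ± 0.12 with IND and 0.12 ± 0.07 with BF. MAFA, a transcription factor of pancreatic beta cells, averaged 2.13 ± 0.08 and 0.11 ± 0.04. ATCAY averaged 2.04 ± 0.03 and 0.21 ± 0.09, but its other probes gave 0.04 to 0.06 with IND. LINC02907 averaged 2.38 ± 0.17 with IND and -0.63 ± 0.06 with BF, which made it the single gene at least 4-fold higher with IND and called lower with BF. DEK, a chromatin protein tied to proliferation, read -2.14, -2.07 and -2.08 with IND against -0.22, -0.25 and -0.24 with BF. For MAFA and DEK the DMSO levels were alike between the IND, BF, and BaP and PH arrays. For OSGIN1, MYOD1, LINC02907 and ATCAY they were not.

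Most AHR targets were higher with both compounds. Of 18 listed targets 16 were tested: 11 were higher with IND and 13 with BF (11.2% and 19.6% of all genes), none was lower with IND, and PTGS2 was lower with BF. The 11 higher with IND were all higher with BF too. Their list median was 1.84 with IND and 1.94 with BF, beside 0.01 and -0.04 for all genes tested. Most of them were not above background in both dyes on every array: with detection in both dyes on all 6 arrays, 6 remained, and their medians were 0.93 and 1.00, beside 1.36 and 1.11 for the NRF2 targets under the same filter.

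CYP1A1 read 5.85, 6.44 and 6.18 with IND and 6.36, 6.26 and 6.07 with BF, and ranked highest of all genes with IND and 2nd with BF. The groups overlapped, and the difference of -0.07 had a 95% interval of -0.38 to 0.24. Its Cy5 spot was saturated on all 6 arrays, so these are lower bounds, at least 71.4-fold with IND and at least 75.0-fold with BF, and a difference between the compounds could be hidden by saturation. UGT1A6, which glucuronidates phenols, read 4.46, 4.56 and 4.68 with IND and 4.29, 4.17 and 4.35 with BF. Its other probe gave 4.39 and 3.20, a difference of 1.20 against 0.30. DMSO was at background on all 3 BF arrays, so the BF rise was at least 19.3-fold, and UGT1A transcripts share exons, so the probe may read more than 1 of them. ALDH3A1, an aldehyde dehydrogenase, averaged 3.23 ± 0.23 and 3.11 ± 0.10, with an interval for the difference of -0.12 to 0.37. ABCG2, an efflux pump, averaged 2.28 ± 0.05 and 2.21 ± 0.07. SLC7A5, an amino acid transporter, averaged 1.85 ± 0.03 and 1.98 ± 0.03, though its other probe gave 1.25 and -0.42.

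CYP1B1, the sister monooxygenase, read 4.46, 4.13 and 4.64 with IND and 6.36, 6.14 and 6.70 with BF. The groups did not overlap, and the ratio was lower by 1.99 with IND (difference -1.99, SE 0.16, adjusted p = 2.763e-06), while scaling the arrays to 1 spread turned the difference to 0.72. The treated channel was lower by 1.38 and the DMSO channel higher by 0.61 on the IND arrays. AHRR, the repressor that AHR induces against itself, read 2.22, 2.94 and 2.85 with IND and 3.99, 4.22 and 4.12 with BF, a difference of -1.44 (SE 0.17, adjusted p = 3.93e-05) that became 0.24 after the same scaling. TIPARP, another AHR-induced repressor, averaged 0.95 ± 0.06 and 1.91 ± 0.04, and HSD17B2, which inactivates estradiol and testosterone, 1.82 ± 0.13 and 2.58 ± 0.05. Neither difference reached 2-fold. CYP2S1 averaged 1.97 ± 0.22 and 1.30 ± 0.08, and NQO1, a quinone reductase, 1.65 ± 0.05 and 1.11 ± 0.02, again under 2-fold. NQO1 had a DMSO signal lower by 2.05 on the IND arrays, which moved with its ratio.

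The other AHR targets did not share a direction. NFE2L2, which encodes NRF2, averaged -0.19 ± 0.04 with IND and 0.90 ± 0.06 with BF, but its other probe gave -0.88 and -2.26, and the mean of all its probes turned the difference of -1.08 to 0.15. PTGS2, the inducible cyclooxygenase, averaged 0.21 ± 0.04 with IND and -1.71 ± 0.10 with BF. Its other probe gave -0.03 and 0.08, so its level with BF is uncertain. EREG, an EGF receptor ligand, averaged 0.23 ± 0.05 and 0.76 ± 0.12, and its other probe gave 0.01 and 0.07. TGFBI averaged -0.11 ± 0.08 and -0.47 ± 0.04, and FGF21, a hepatokine, 0.11 ± 0.04 and 0.03 ± 0.02. Over the list, the difference between compounds was called higher with IND for 1 gene and lower for 3 (background 11.0% and 5.46%). After scaling to 1 spread these counts were 7 and 0.

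**Figure D2:**
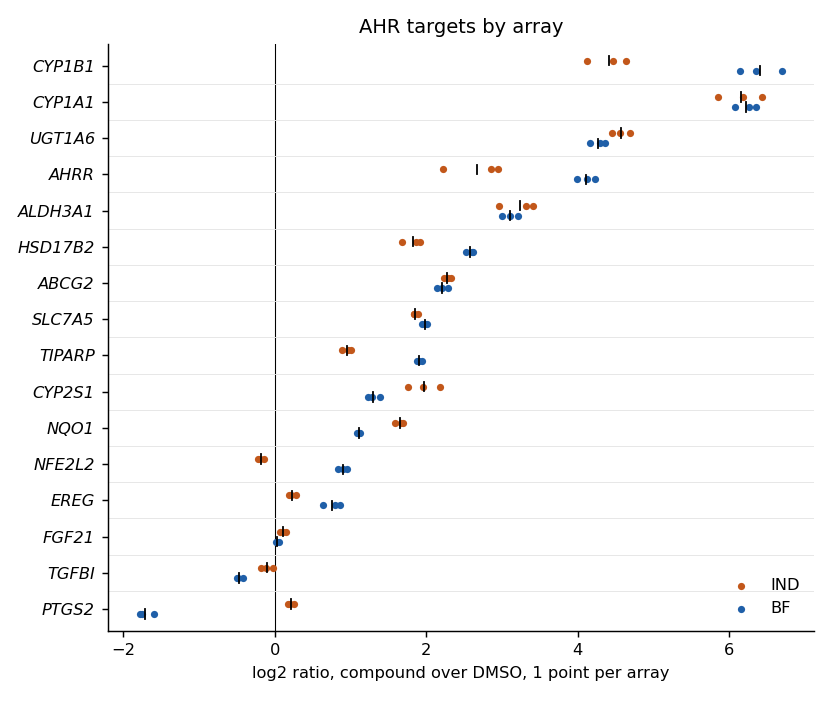
Log2 ratio against DMSO of the 16 AHR targets tested, 1 point per array and a bar at the mean, for IND and BF. CYP1A1 lies near 6 with both compounds, while CYP1B1 lies between 4.13 and 4.64 with IND and between 6.14 and 6.70 with BF.

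The core motif of AHR was looked for in the 300 bases around the start of each gene (250 before and 50 after, RefSeq, GRCh38.p14), as GCGTG or, on the other strand, CACGC. The motif stood in 36.3% of all 27305 promoters and in 49.1% of the 10494 that matched a tested gene. It stood in 8 of the 13 promoters matched to tested AHR targets (61.5%) and in 6 of the 8 matched to those higher with both compounds, against 46.4% of promoters of all genes higher with both and 44.7% of those lower with both. Among genes higher with IND than with BF it stood in 47.9%, and among those lower in 50.2%. A match is a description of letters and not a site of binding. Shown are stretches of 4 AHR targets that rose with both compounds and hold a single match, written 5′ to 3′ on the gene's strand, with the match in capitals.
CYP1A1, chr15:74725566-74725600, minus strand: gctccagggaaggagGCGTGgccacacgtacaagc
AHRR, chr5:321669-321703, plus strand: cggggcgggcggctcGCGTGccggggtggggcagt
UGT1A6, chr2:233691487-233691521, plus strand: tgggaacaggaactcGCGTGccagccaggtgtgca
SLC7A5, chr16:87869661-87869695, minus strand: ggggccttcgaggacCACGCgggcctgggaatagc
TIPARP, with 2 matches, is shown for contrast, since they lie close together in 1 window.
TIPARP, chr3:156674367-156674467, plus strand: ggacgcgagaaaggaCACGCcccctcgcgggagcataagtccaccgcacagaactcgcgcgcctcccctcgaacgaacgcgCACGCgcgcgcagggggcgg

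Of 12 proteins that carry the AHR signal, 1 was higher and 3 lower with IND (11.2% and 14.5% of all genes), and 4 were higher and 1 lower with BF (19.6% and 25.7%). AHR itself averaged 0.37 ± 0.15 with IND and 0.95 ± 0.01 with BF, and its partner ARNT -0.21 ± 0.08 and -0.27 ± 0.08. RELB, an NF-kappaB subunit that can pair with AHR, rose with both, to 0.63 ± 0.08 and 1.14 ± 0.04. NCOA2, a coactivator, fell with both, to -0.85 ± 0.11 and -2.93 ± 0.04. The chaperone gene HSP90AA1 averaged -0.19 ± 0.15 with IND and rose to 0.83 ± 0.10 with BF, a called difference of -1.02 (adjusted p = 3.64e-06), though its other probes gave differences of -1.23 to -0.02.

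Most NRF2 targets were higher with IND, and most of those with BF too. Of 27 listed 25 were tested: 23 were higher with IND and none lower (11.2% and 14.5% of all genes), and 16 were higher with BF and 2 lower, GPX2 among them (19.6% and 25.7%). All 16 were higher with IND as well. The list median was 1.41 with IND and 1.17 with BF. In the direct comparison 6 were called higher with IND and none lower (11.0% and 5.46% of all genes). Under scaling to 1 spread the count was 14 and 0, and under median centring 4 and 0.

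HMOX1, which breaks down heme, read 3.27, 3.82 and 3.89 with IND and 1.39, 1.34 and 1.21 with BF. Its Cy5 spot was saturated on the 3 IND arrays, so the IND rise was at least 12.7-fold, and the difference of 2.35 (adjusted p = 5.409e-07) rests on that bound. GPX2, a glutathione peroxidase of epithelia, read 0.74, 0.70 and 0.62 with IND and -1.16, -1.11 and -0.99 with BF. This difference of 1.77 (SE 0.06, adjusted p = 1.667e-08) was a change of direction, at like DMSO levels. OSGIN1 is given above. EPHX1, microsomal epoxide hydrolase, which hydrates the epoxides of these hydrocarbons, averaged 1.14 ± 0.06 with IND and -0.00 ± 0.01 with BF, and the DMSO signal was lower by 0.88 on the IND arrays. FTL, a ferritin subunit, averaged 1.17 ± 0.25 with IND (saturated, at least 2.25-fold) and -0.02 ± 0.12 with BF, while its other probes gave 0.61 to 0.85 with BF. AKR1C1, a ketosteroid reductase that also oxidises hydrocarbon dihydrodiols, averaged 3.11 ± 0.05 and 1.16 ± 0.06. That difference lay in the DMSO channel (-1.93) and not in the treated one (0.03), its other probes differed by 0.48 to 0.57, and AKR1C paralogs are near-identical, so it is uncertain.

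Most other NRF2 targets had ratios within 2-fold of each other. SRXN1, sulfiredoxin, read 3.33, 3.29 and 3.28 with IND and 3.31, 3.25 and 3.36 with BF, with an interval for the difference of -0.13 to 0.11. GCLM, a subunit of the enzyme that starts glutathione synthesis, averaged 3.03 ± 0.35 and 3.22 ± 0.04, and its partner GCLC 1.96 ± 0.06 and 1.71 ± 0.07. TALDO1, of the pentose phosphate pathway, averaged 1.36 ± 0.09 and 1.40 ± 0.02. SLC7A11, the cystine importer, averaged 1.53 ± 0.04 and 2.03 ± 0.03, and AKR1B10 2.73 ± 0.24 and 3.40 ± 0.10. TXNRD1, thioredoxin reductase, averaged 2.30 ± 0.02 and 1.35 ± 0.06, and SQSTM1, an autophagy receptor, 2.86 ± 0.10 and 1.88 ± 0.13, each just short of the 2-fold threshold. The TXNRD1 DMSO signal was lower by 2.33 on the IND arrays, and the other SQSTM1 probe gave 0.03 and -0.28. PGD, also of the pentose phosphate pathway, was called with neither compound (0.20 ± 0.03 with IND and -0.52 ± 0.08 with BF).

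**Figure D3:**
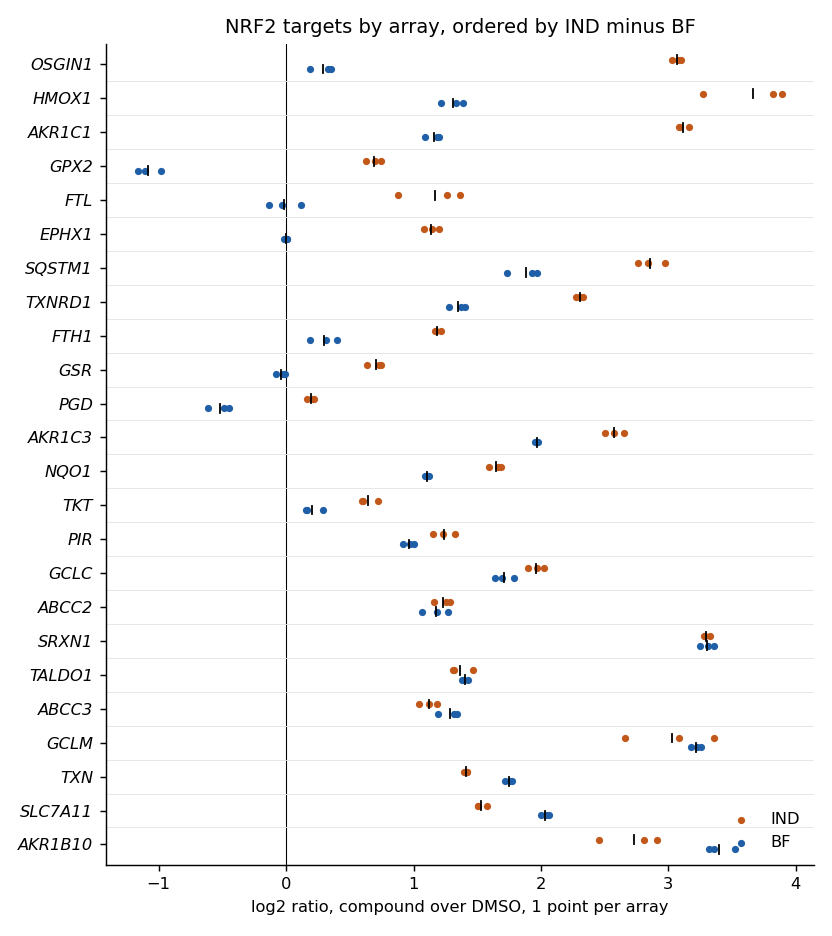
Log2 ratio against DMSO of 24 of the 25 NRF2 targets tested, 1 point per array and a bar at the mean, for IND and BF. OSGIN1, HMOX1 and GPX2 show IND points at 3.07, 3.66 and 0.69 on average beside BF points at 0.29, 1.31 and -1.08, while SRXN1 lies at 3.30 and 3.31.

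The core of the antioxidant response element, TGACNNNGC or GCNNNGTCA on the other strand, stood in 13.6% of all promoters, in 15.1% of those of tested genes and in 5 of the 18 promoters matched to tested NRF2 targets (27.8%). Of the 17 matched to NRF2 targets higher with IND, 4 held it (23.5%). It stood in 18.2% of promoters of genes higher with both compounds. None of the matches shown overlapped a GCGTG match. The windows of 3 targets are given because they show 3 kinds of response, alike with both (GCLM), a higher ratio with IND that was not called different (TXNRD1), and opposite directions (GPX2).
GCLM, chr1:93909443-93909477, minus strand: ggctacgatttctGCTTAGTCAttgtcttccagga
TXNRD1, chr12:104215667-104215701, plus strand: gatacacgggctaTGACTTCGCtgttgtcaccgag
GPX2, chr14:64942846-64942880, minus strand: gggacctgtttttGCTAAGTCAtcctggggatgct

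Genes with a dye saturated or at background on every array of a compound, such as CYP1A1 and UGT1A6, were left unranked. So were genes with another probe of opposite sign. Of the rest, the highest with both compounds by the smaller of their 2 ratios were CYP1B1 and SRXN1, given above, and 6 others. AGR2, a disulfide isomerase of secretory cells, averaged 4.21 ± 0.24 with IND and 4.96 ± 0.02 with BF. GPAT3, a glycerol phosphate acyltransferase, averaged 4.05 ± 0.06 and 4.83 ± 0.06. TIMP1, an inhibitor of matrix proteases, averaged 3.30 ± 0.07 and 3.64 ± 0.07. SLC37A2, a sugar phosphate carrier, averaged 3.28 ± 0.18 and 4.76 ± 0.08, MLPH, which ties melanosomes to myosin, 3.62 ± 0.18 and 4.76 ± 0.13, and NKAIN1 3.64 ± 0.31 and 4.65 ± 0.02. The differences for these last 3, called lower with IND, turned to 0.53, 0.96 and 1.08 after scaling to 1 spread.

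The genes lowest with both included products and enzymes of the liver and of lipid metabolism. GPC6, a glypican, read -3.28, -3.15 and -3.67 with IND and -4.24, -4.30 and -4.40 with BF, and was the lowest gene of all with IND. AFP, alpha-fetoprotein, a marker of hepatoma, read -2.88, -3.02 and -2.98 with IND and -3.07, -2.97 and -2.86 with BF. The groups overlapped, with an interval for the difference of -0.14 to 0.16. ANGPTL8, an inhibitor of lipoprotein lipase, averaged -2.63 ± 0.08 and -4.18 ± 0.13. Its difference of 1.54 became -0.15 after scaling. ACSM2B, a medium-chain acyl-CoA synthetase, and DDC, dopa decarboxylase, averaged -2.91 ± 0.16 and -2.60 ± 0.03 with IND, and -3.30 ± 0.04 and -3.03 ± 0.07 with BF. COL2A1, a cartilage collagen, averaged -2.65 ± 0.12 and -3.56 ± 0.07.

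Cell cycle genes fell together with both compounds. Of 32 genes of G2 and mitosis, 32 were lower with IND and 31 with BF, beside 14.5% and 25.7% of all genes, with list medians of -1.55 and -1.82. TOP2A, the topoisomerase of mitotic chromosomes, averaged -2.60 ± 0.05 and -2.57 ± 0.10, and CDK1, the mitotic kinase, -2.08 ± 0.06 and -2.13 ± 0.02. The exception with BF was PTTG1, securin, at -0.14. AURKB, a kinase of the centromere, read -1.48, -1.58 and -1.68 with IND and -3.62, -3.57 and -3.59 with BF, and PLK1 averaged -1.48 ± 0.01 and -2.53 ± 0.07. The difference was called for 6 of the 32, all less reduced with IND (11.0% of all genes were called higher with IND and 5.46% lower). After scaling to 1 spread it was called for none in that direction and 10 in the other. Of 30 DNA replication genes 26 were lower with each compound, and 23 with both. MCM2 of the replicative helicase averaged -1.84 with IND and -2.46 with BF, and RFC3 of the clamp loader -1.73 and -1.74. PCNA and TYMS were called lower with IND (-0.86 and -0.80) and not with BF (0.06 and 0.03), but their differences did not reach 2-fold.

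Genes of lipid synthesis fell as broadly. Of 24 cholesterol genes 20 were lower with each compound, beside 14.5% of all genes with IND and 25.7% with BF. Lower with both were 18 (8.67% of all genes), and none was higher. HMGCS1, an early enzyme of the pathway, averaged -2.73 ± 0.01 and -2.31 ± 0.09, and its other probe gave -2.65 and -3.70. NSDHL was -0.93 ± 0.04 with IND and -2.25 ± 0.11 with BF. It was 1 of 3 called differences, all higher with IND (11.0% of all genes higher, 5.46% lower). After scaling the counts were 0 higher and 3 lower with IND. Of 19 genes of fatty acid and triglyceride synthesis 16 were lower with IND and 15 with BF, beside the same 14.5% and 25.7% of all genes. SCD, the stearoyl-CoA desaturase, averaged -2.37 and -3.26. FASN, fatty acid synthase, averaged -1.49 ± 0.08 and -4.43 ± 0.11, and its DMSO signal on the arrays of 2 other compounds (BaP and PH) was lower by 3.98 than on the BF arrays.

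Secreted liver proteins were lower for 22 of 28 genes with IND and 23 with BF, beside 14.5% and 25.7% of all genes. The list medians were -1.39 and -1.76, beside 0.01 and -0.04 for all genes tested. APOB and APOC3, apolipoproteins of very low density lipoprotein, averaged -2.60 and -2.79 with IND and -2.42 and -2.53 with BF. TTR, transthyretin, averaged -0.85 ± 0.04 and -2.47 ± 0.06, and CP, ceruloplasmin, -1.45 ± 0.08 and -2.85 ± 0.06. APOM, of high density lipoprotein, was called higher with IND (0.81 ± 0.05) and not with BF (0.24 ± 0.07), and its other probe gave 0.98 and -0.10. APOE was called higher with BF: it read -0.10, -0.04 and -0.08 with IND and 1.23, 1.44 and 1.46 with BF, a difference of -1.45 (adjusted p = 8.994e-08) at like DMSO levels. The list's called differences, 5 higher and 1 lower with IND (11.0% and 5.46% of all genes), became 0 and 7 after scaling.

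**Figure D4:**
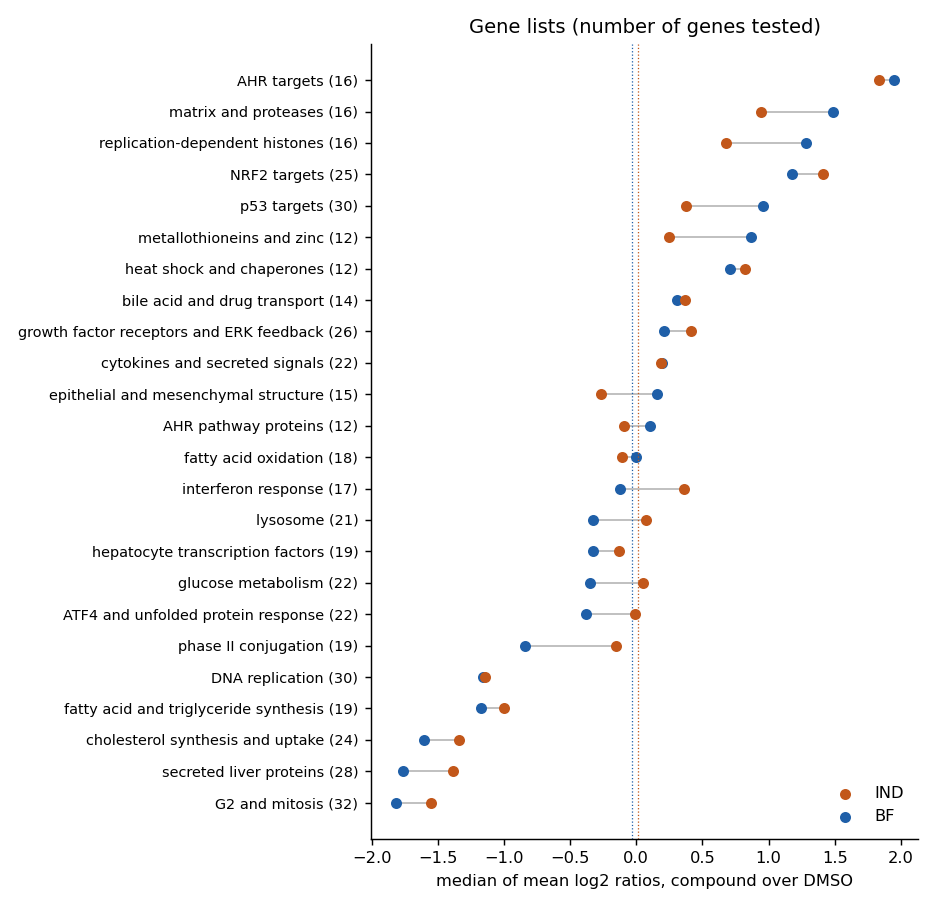
Median over the tested members of each gene list of the mean log2 ratio against DMSO with IND and with BF. AHR targets lie at 1.84 and 1.94 (0.93 and 1.00 over the 6 detected in both dyes on all arrays), and G2 and mitosis at -1.55 and -1.82, and the number tested stands beside each list.

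The p53 targets rose in part with each compound. Of 30 tested 13 were higher and 1 lower with IND (11.2% and 14.5% of all genes), and 18 higher and 3 lower with BF (19.6% and 25.7%), with medians of 0.37 and 0.96. CDKN1A, the p21 cell cycle inhibitor, read 2.34, 2.40 and 2.40 with IND and 2.47, 2.46 and 2.46 with BF, saturated with BF (at least 5.51-fold), and its other probe gave 2.26 and -0.33. TP53I3 averaged 1.48 ± 0.07 and 1.74 ± 0.02, PLK3 1.84 ± 0.05 and 2.29 ± 0.04, and MDM2, the ligase that degrades p53, 0.99 ± 0.02 and 1.22 ± 0.02, with 0.43 and 1.97 from its other probe. RRM2B, the p53-inducible subunit of ribonucleotide reductase, read -0.19, -0.06 and -0.21 with IND and 1.53, 1.57 and 1.54 with BF. FDXR, ferredoxin reductase, averaged 0.40 ± 0.09 and 1.82 ± 0.02, and FAS, the death receptor, 0.80 ± 0.02 and 2.41 ± 0.09. SESN2, a stress protein also under ATF4, went the other way, 0.94 ± 0.07 with IND and -0.53 ± 0.09 with BF. The difference was called higher with IND for 2 genes and lower for 5 (11.0% and 5.46% of all genes), against 3 and 1 after scaling.

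Several histone and signalling genes rose with both compounds. Of 16 histone genes 9 were higher with IND and 10 with BF (11.2% and 19.6% of all genes), and probes for histone paralogs may share targets. H1-3, a linker histone, read 1.87, 2.17 and 2.22 with IND and 3.73, 3.81 and 4.01 with BF. H1-2 averaged 2.46 ± 0.10 and 3.96 ± 0.07 and H1-4 2.29 ± 0.05 and 3.40 ± 0.06, differences of -1.50 and -1.11 that turned to 0.10 and 0.31 after scaling. IL11, a cytokine of the IL-6 family, read 2.40, 2.59 and 2.45 with IND and 5.15, 5.04 and 5.01 with BF, a difference of -2.59 (SE 0.07, adjusted p = 3.785e-09) that lay in the treated channel (-2.35) at like DMSO levels. AREG, amphiregulin, averaged 2.80 ± 0.05 and 4.12 ± 0.09, DUSP5, an ERK phosphatase, 2.98 ± 0.14 and 4.15 ± 0.06, and EGR1, an immediate early factor, 2.28 ± 0.11 and 3.67 ± 0.04. Their differences of -1.32, -1.17 and -1.39 became 0.41, 0.62 and 0.09 after scaling. CXCL8, interleukin 8, rose with BF (1.63 ± 0.14) and was not called with IND (0.15 ± 0.03). Beside those shares, and 14.5% and 25.7% of all genes lower with IND and BF, of 22 cytokines and secreted signals 10 were higher and 2 lower with IND, and 9 higher and 4 lower with BF. Of 26 growth factor receptors and ERK feedback genes, 11 were higher and 5 lower with IND, and 12 higher and 9 lower with BF.

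In the direct comparison 1446 genes (11.0%) had a higher ratio with IND and 715 (5.46%) a lower one, and for 2160 of these 2161 the IND and BF arrays did not overlap (81.2% of all genes did not overlap). In either direction 16.5% of genes were called. Higher ratios made up 66.9% of the calls, but 47.4% under median centring, 60.1% after scaling to 1 spread, and 47.1% among genes with like DMSO levels, where 355 were higher and 398 lower. Of the 1446, 1342 were lower than DMSO with BF, and 1047 of those were not called with IND. The treated channel of the IND arrays was at least 2-fold higher for 1120 of the 1446, and the DMSO channel at least 2-fold lower for 63. For 875 of them (60.5%) the DMSO signal of the BaP and PH arrays was at least 2-fold lower than that of the BF arrays. In the 2623 genes of all 13099 with such a DMSO shift, the median ratio was -0.63 with BF and 0.05 with IND. The BF DMSO signal enters this shift, the BF ratio and the difference between compounds. A high BF DMSO signal lowers the first 2 and raises the third, so they are linked by construction. The part of that shift in the BF values was not tested.

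**Figure D5:**
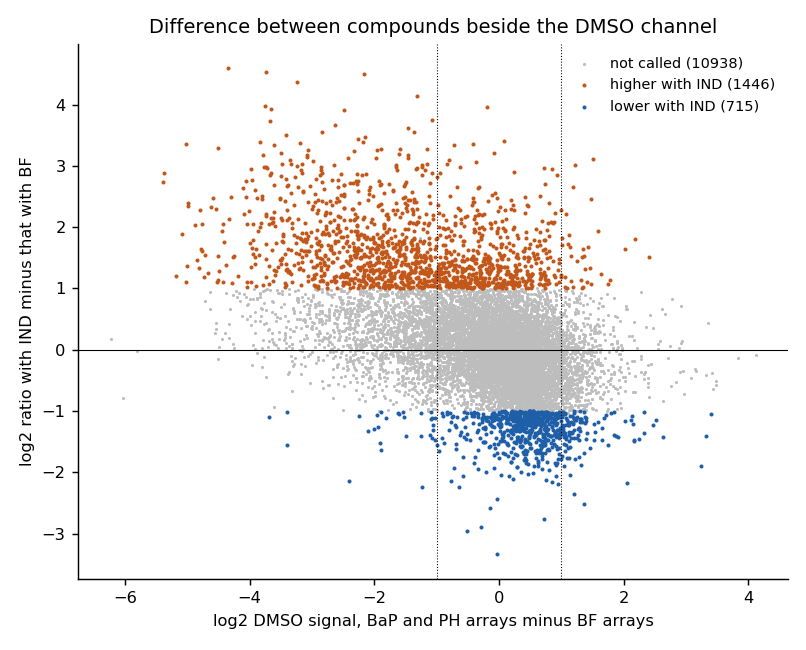
Difference of the log2 ratio with IND minus that with BF for each gene (y axis) against the log2 DMSO signal of the BaP and PH arrays minus that of the BF arrays (x axis), with the 1446 genes called higher and the 715 called lower in colour. Of the genes called higher with IND, 875 lie at or left of -1. The BF DMSO signal is part of both axes, so they are linked by construction.

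The genes with the largest excess of IND over BF were those that BF lowered deeply. CTSD, the lysosomal protease cathepsin D, read -0.04, -0.04 and -0.10 with IND and -4.77, -4.67 and -4.52 with BF. LYPLA2, NAA60 and AP1B1 averaged 0.48, 0.20 and 0.03 with IND and -3.89, -3.77 and -3.90 with BF. For these 4 the DMSO signal of the BaP and PH arrays was lower than that of the BF arrays by 3.23 to 4.34 on the log2 scale. TXLNA, a syntaxin binding protein, had like DMSO levels and averaged -0.10 ± 0.03 and -4.06 ± 0.12, but its other probe gave 0.15 and -0.69. UBQLN4, ARFGAP2 and QARS1, further genes with like DMSO levels, chosen after those levels were seen, averaged 0.20, -0.07 and -0.42 with IND and -2.77, -3.04 and -3.37 with BF.

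The genes with the largest shortfall of IND against BF were ones that BF raised. IL1RL1, a receptor of the interleukin 1 family, read 0.39, 0.16 and 0.29 with IND and 3.73, 3.50 and 3.64 with BF, a difference of -3.34 (SE 0.08, adjusted p = 2.473e-09) in the treated channel (-3.20) at like DMSO levels. KLRC1 and KLRC2, natural killer receptors, averaged 1.04 ± 0.07 and 1.00 ± 0.05 with IND and 3.93 ± 0.10 and 3.96 ± 0.04 with BF. They are near-identical paralogs and may be 1 signal, and another KLRC1 probe gave 0.00 and 0.06. ZSCAN4, a zinc finger protein of early embryos, averaged 0.31 ± 0.10 and 2.55 ± 0.12, and its other probe 0.21 and 2.10. CCR7, a chemokine receptor, averaged 0.81 ± 0.17 and 2.88 ± 0.33, ASB2, a ubiquitin ligase subunit, 2.84 ± 0.17 and 4.90 ± 0.15, and KRT15, a basal keratin, 0.52 ± 0.13 and 2.56 ± 0.10.

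The genes called in opposite directions numbered 165, of which 55 had like DMSO levels. CLDN4, a tight junction claudin, read 1.93, 1.99 and 1.90 with IND and -2.75, -2.51 and -2.50 with BF, and its DMSO signal on the BaP and PH arrays was lower by 3.74 than on the BF arrays. FLNA, filamin A, averaged 1.15 ± 0.11 and -2.20 ± 0.25, with a DMSO shift of -5.02. BCL2L1, an inhibitor of apoptosis, averaged 0.59 ± 0.02 and -3.56 ± 0.24, and its other probe gave 0.47 and -4.48. ACP2, a lysosomal phosphatase, averaged 0.79 ± 0.04 and -2.96 ± 0.08. TRAFD1, a regulator of innate signalling, had like DMSO levels and read 0.70, 0.63 and 0.63 with IND and -2.83, -2.61 and -2.68 with BF. In the other sense, ANKRD12 read -0.51, -0.69 and -0.72 with IND and 2.10, 2.15 and 2.13 with BF, and its 3 other probes had the same signs (at or below -0.53 with IND, and 1.22 to 1.37 with BF). CEP290, a protein of the cilium base, averaged -0.73 ± 0.12 and 1.44 ± 0.04. EEA1, of early endosomes, averaged -1.46 ± 0.17 and 0.74 ± 0.02, but its other probe was lower with both. KTN1, kinectin, averaged -1.37 ± 0.10 and 0.74 ± 0.54, at like DMSO levels.

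Change with a single compound was counted only where the difference itself passed. By that rule 85 genes were higher and 226 lower with IND alone, and 283 higher and 1047 lower with BF alone. Among genes with like DMSO levels the counts were 24, 140, 150 and 248. Of the 14 genes at least 4-fold higher with BF and not called higher with IND, named after their values were seen, MMP1, interstitial collagenase, averaged 0.25 ± 0.05 with IND and 2.38 ± 0.08 with BF, and BIRC3, an inhibitor of apoptosis induced by NF-kappaB, 0.07 ± 0.08 and 2.31 ± 0.05, the IND value at background in Cy5 on all 3 arrays. ADM, adrenomedullin, averaged 0.41 and 2.16, and BCL2A1, another survival factor, 0.57 and 2.10.

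Where both compounds moved a gene the same way, the ratio was mostly larger with BF, in 759 of the 1010 genes higher with both and in 785 of the 1136 lower with both. The median was 0.93 with IND and 1.24 with BF for the first, and -1.03 and -1.37 for the second. After the arrays were scaled to 1 spread, the ratio was larger with BF in 237 and 314. That scaling enlarges the IND ratios and shrinks the BF ratios (factors 1.29 and 0.78). It therefore cannot decide which compound gave the larger changes.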

How the data were processed

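The members and gene lists were chosen with earlier results of these data known. Two-colour arrays of HepG2 RNA (compound in Cy5, DMSO in Cy3) were deposited as scanner tables. The deposited columns give spot intensity and local background per dye, and the percent of saturated pixels, as the authors' scanner software wrote them, per the file headers. The authors' processed log2 ratios were deposited too and served as an alternative for BF, and 24 of their columns were not used. Background was corrected with normexp (offset 50), dyes were aligned by loess within each array, and spots of a probe were averaged (limma 3.58.1, R 4.3.3). A gene was kept if a probe exceeded background by 2 background SDs in either dye on at least 2 of 3 arrays with both compounds, with its brightest probe. lmFit and eBayes fitted 1 mean per compound over the 6 arrays. "Saturated" means at least 20% of pixels. Where a dye was at background on all arrays of a compound, "at least" folds set the bright channel against the dimmest signal well above background. Where only saturation limited the ratio, they are the mean ratio as read. For channels and DMSO levels, the mean log2 intensity of the 2 dyes was quantile-scaled between arrays. Each dye was then rebuilt from that mean and the loess ratio.

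Genes were named by rule: all tested AHR targets, the 8 highest and 8 lowest with both compounds, the 8 largest differences each way, the 6 largest opposite calls each way and leading members of each list. The rankings over all genes left out genes with a dye saturated or at background on every array of a compound. They also left out genes with another probe of opposite sign in the quantity ranked. Names came from RefSeq's gene table, and 40 probes with conflicting annotations were left out. A few named genes are not reported here. In simulated data with 200 changed genes among 13099, changes of 2-fold were recovered for 100% (IND) and 99.5% (BF), and a difference of 4-fold for 99.5%. Alternatives varied background, normalization, scaling, filters, probes, thresholds and replicates.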

Additional observations from a re-analysis of the deposited data

Results flagged for a closer look

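Shared probes with no gene name lie outside the comparison of genes, and they held signal too. Of 6772 such probes that passed the detection filter, 234 (3.4554%) were higher and 406 (5.9953%) lower than DMSO with both compounds. These shares were below the 7.71% and 8.67% of named genes. Between the compounds 694 probes were higher with IND (10.2%) and 361 lower (5.33%), near the 11.0% and 5.46% of named genes. These probes have no name here, and their change was not examined further.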

How the results depend on the processing

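Of 199 recomputed counts 175 stayed within 1.5 times, and of 3728 recomputed values of 180 named genes 3443 kept direction and side of the threshold. Median centring gave 4141 genes higher with BF, 270 in opposite directions and 1456 lower with IND than with BF. Detection in both dyes on all 6 arrays left 467 lower with IND, of 9262 genes. Thresholds of 2-fold and 3-fold gave 533 higher and 787 lower with IND, 1069 and 2003 with BF, 376 higher and 482 lower with both, 16 opposite, and 618 higher and 109 lower with IND than with BF. limma's treat gave 70 opposite and 365 lower with IND than with BF. The genes with like DMSO levels (chosen after seeing the data) gave 758, 1066, 1496, 1355, 569, 589, 55, 355 and 398 in the same order of results. Fewer genes tested or a stricter threshold makes smaller counts by construction, and the cause of the others was not tested.

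Scaling to 1 spread reversed IND minus BF for AHRR (0.24), ANGPTL8 (-0.15), AREG (0.41), CYP1B1 (0.72), DUSP5 (0.62), EGR1 (0.087), H1-2 (0.10), H1-4 (0.31), MKI67 (-0.048), MLPH (0.96), MT2A (0.084), NKAIN1 (1.08) and SLC37A2 (0.53), and the mean of all probes reversed NFE2L2 (0.15). Without 1 array at a time the counts ran from 1470 to 1508 higher and 1891 to 1928 lower with IND, 2548 to 2575 and 3338 to 3401 with BF, 1004 to 1021 and 1128 to 1157 with both, 161 to 171 opposite, and 1413 to 1486 higher and 707 to 722 lower with IND than with BF. Same-numbered arrays did not deviate together (residual correlations 0.027, 0.016 and -0.026), and with the replicate number as a block the direct comparison gave 1446 and 715 again. The authors' BF ratios called 5393 of 12329 genes the same way and 0 the opposite way. The same check for IND was not run, because those columns could not be tied to spots. Saturation or a dye at background limits 738 genes to bounds.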

Other observations

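The counts below stand beside 11.2% of all genes higher and 14.5% lower with IND, 19.6% and 25.7% with BF, and a difference called higher with IND for 11.0% and lower for 5.46%, and a count near those shares is not a result about the group. Of 19 phase II conjugation enzymes 3 were higher and 7 lower with IND, and 4 higher and 12 lower with BF. MGST1, a microsomal glutathione transferase, rose with both (1.68 and 2.14), while UGT2B4 and UGT2B10, which glucuronidate bile acids and other substrates, fell with both (-1.59 and -1.62 with IND, -2.75 and -1.89 with BF). Of 14 transport and bile acid genes 6 were higher and 2 lower with IND, and 4 higher and 3 lower with BF. The efflux pumps ABCC2 and ABCC3 rose alike (1.24 and 1.12 with IND, 1.17 and 1.28 with BF). CYP27A1, a sterol hydroxylase, was -0.41 with IND and -3.44 with BF. Of 17 interferon response genes 6 were higher and none lower with IND, and 3 were higher and 3 lower with BF. OAS1 rose with both (1.94 and 1.59) and IRF9 too (1.08 and 1.02), while IRF7 averaged -0.52 and -3.28, with another probe near 0 (0.06 and -0.09). The difference was called higher with IND for 4 of the 17 and lower for none, and for 0 of the 5 with like DMSO levels.

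Of 22 glucose metabolism genes the difference was called higher with IND for 8 and lower for none, with the same counts after scaling to 1 spread, but for 6 under median centring or without BF replicate 1, and for 4 of the 12 with like DMSO levels. PCK1, which starts gluconeogenesis, averaged -0.62 with IND and -2.88 with BF (-0.09 and -0.40 from its other probe), and PKLR, liver pyruvate kinase, -1.29 and -2.32. Of 21 lysosome genes 7 were higher and 1 lower with IND, and 7 higher and 10 lower with BF. GLA, alpha-galactosidase, rose with both (1.44 and 1.67), and MCOLN1, a lysosomal channel, was 0.87 with IND and -0.95 with BF. Among 12 heat shock genes 7 were higher with each compound, 4 of them with both, and 1 was lower with IND. HSPB1 averaged 0.98 with IND and 1.97 with BF, and HSF1 0.80 and 1.04. Of 12 metallothionein and zinc genes 4 were higher and 3 lower with IND, and 7 higher and 2 lower with BF. MT2A rose with both (at least 3.82-fold and 8.58-fold, saturated), and MT1F fell with both (-2.28 and -1.73), and probes of these paralogs may share targets. Of 19 hepatocyte transcription factors 2 were higher and 4 lower with IND, and none higher and 9 lower with BF. CEBPA averaged -1.80 and -2.46, with up to 0.26 from another probe with IND.

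Matrix genes were higher for 9 of 16 and lower for 3 with IND, and 10 and 5 with BF. CCN1, a matricellular protein, averaged 2.23 and 4.11. THBS1, thrombospondin 1, was 1.24 with IND and -0.44 with BF. Of 22 ATF4 and unfolded protein response genes 4 were higher and 5 lower with IND, and 4 higher and 8 lower with BF. ATF3 averaged 1.76 and 2.08, but its other probe gave 1.56 and -0.79, and PHGDH of serine synthesis fell with both (-1.65 and -2.23). Of 18 genes of fatty acid oxidation 4 were higher and 4 lower with IND, and 3 higher and 6 lower with BF. CPT1A, the carnitine shuttle enzyme, rose with both (1.43 and 2.17). Of 15 structural genes 3 were higher and 4 lower with each compound. KRT19 was 1.78 with IND and 1.77 with BF, and LMNB1, a lamin lost in senescence, -1.81 and -2.40.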
